A study of Mus musculus with 14 samples.

Results

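The genes described here are 31 genes of the actin cytoskeleton and of its regulation by serum response factor (SRF). They were given as a list of names, among 18193 genes that the array names. The rule used no measured value, but the list was drawn up with earlier results of these data known, so the counts below describe it and are no independent evidence. All 31 had at least 1 probe set (a set of short probes for 1 transcript) named for that gene alone, and where there were several the most variable one over the 14 arrays stood for the gene. Of the 31, 30 varied enough to be tested, and Cnn1, a calponin of smooth muscle, did not (SD 0.014 over the 14 arrays, against a minimum of 0.049).

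The arrays held RNA from SCp2, an established epithelial line from the mouse mammary gland, grown in DMEM with 2% FCS (fetal calf serum). Dishes of 35 mm were kept for 3 days as controls or with MMP-3 (called MMP3 in the labels), the protease stromelysin-1, which cleaves matrix proteins and E-cadherin. Experiment A had 6 dishes, 1 control and 1 with MMP-3 at each of 50K, 100K and 250K, where 50K and the like are the labels' counts of plated cells. Experiment B had 8 dishes, 1 of each agent at 25K, 50K, 100K and 250K. The dose of MMP-3 is not given in the sources used here, and all 14 dishes held the same single line, the same medium and no other agent. Each agent and density had 1 dish per experiment, so the errors below measure the spread between dishes of 1 experiment around a model of agent and density.

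Actin is present in cells as monomers and as filaments, which tropomyosins, caldesmon, calponins, filamin and the alpha-actinins stabilise and bundle, myosin II contracts, and vinculin, talin and zyxin tie to integrins at focal adhesions. Cofilin and profilins turn the filaments over. SRF is a transcription factor that binds a short AT-rich element, the CArG box, and is activated with its cofactors MRTF-A and MRTF-B when monomeric actin is used up by filament growth. Many genes of filament proteins are SRF targets, so that the state of actin feeds back on their transcription. In mammary epithelium, spreading and loss of cell contacts go with stress fibres, which these proteins build.

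The promoters of several of these genes carry the element itself, which is why a few are printed here. Promoter windows of 300 bases (250 before to 50 after a gene's start, RefSeq, build GRCm38.p6) were matched for 29 of the 31 genes, in 35 windows. Actb and Tagln had no window, so their promoters were not searched. The CArG box, 10 bases that read as a box on both strands, was searched as an exact match. It stood in 9 of the 35 windows (25.7%), belonging to 8 genes, against 1.63% of all 32851 windows. The list was chosen for actin and SRF, so these shares describe it and are no independent evidence of SRF control. Those 8 genes were Actg1, Cnn2, Fhl1, Fhl2, Lima1, Myl9, Srf and Vcl. In the stretches below, written 5′ to 3′ on the gene's strand, capitals mark the box:
Srf, chr17:46556190-46556269 (- strand): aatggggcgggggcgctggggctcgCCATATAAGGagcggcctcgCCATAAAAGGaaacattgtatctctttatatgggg
Actg1, chr11:120348551-120348610 (- strand): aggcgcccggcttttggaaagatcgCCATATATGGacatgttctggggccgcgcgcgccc
Cnn2, chr10:79988519-79988578 (+ strand): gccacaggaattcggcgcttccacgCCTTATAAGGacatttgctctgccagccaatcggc
Vcl, chr14:20929148-20929205 (+ strand): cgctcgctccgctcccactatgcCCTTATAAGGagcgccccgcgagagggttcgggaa
Myl9, chr2:156775278-156775337 (+ strand): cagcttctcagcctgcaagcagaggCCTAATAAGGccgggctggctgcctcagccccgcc
Fhl2, chr1:43163962-43164017 (- strand): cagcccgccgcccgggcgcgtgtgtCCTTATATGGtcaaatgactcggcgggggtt
The Srf promoter held 2 boxes, 82 and 62 bases before the start, so the factor's own gene carries the element it binds. Cnn2 and Vcl shared the same box letters, at 56 and 227 bases before their starts, and Lima1, whose stretch is not printed, had them at 47. Actg1 had its box at 90 bases, Myl9 at 161 and Fhl2 at 31. Another window of Fhl2, also not printed, had a box of other letters at 96. A match describes the letters only, and no binding was measured here.

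Values are relative log2 expression after RMA, the authors' array normalization. In the deposited table every probe set has a median of 0 over the 14 arrays, so a value says how far an array lies from that gene's middle array and nothing of its level, and genes cannot be ranked by abundance. The RNA comes from whole dishes, so fewer cells with a transcript and less of it per cell cannot be told apart. Below, values in A follow the order 50K, 100K and 250K, and values in B the order 25K, 50K, 100K and 250K. A gene is said to have risen or fallen only when its limma test, adjusted by Benjamini-Hochberg over 11812 genes, had an adjusted p under 0.05.

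Some arrays of B stood apart. The array labelled MMP3 100K of B had an SD of 0.869 over all probe sets, against 0.232 to 0.412 on the other 13. Its actin control probe sets read -1.82 at the 3′ end and -2.47 at the 5′ end, a 3′ minus 5′ difference of 0.654, against -0.339 to 0.192 elsewhere. Over all genes tested, 4 arrays of B went against their label when set beside the MMP-3 effect of A: control 50K (r = 0.69) and control 250K (r = 0.75) resembled it, while MMP3 25K (r = -0.67) and MMP3 100K (r = -0.38) opposed it. Each such r is a description over genes, which are not replicates. The 18S control was higher on every array of A (0.542 to 0.954) than on any of B (-0.526 to -0.004). Within A, 18S read 0.688, 0.581 and 0.542 in the controls and 0.954, 0.768 and 0.930 in the dishes with MMP-3, and the Gapdh control's 3′ minus 5′ difference read 0.030, -0.001 and -0.027 in the controls and 0.125, 0.040 and 0.166 with MMP-3. Neither pair of groups overlapped, and the part of these controls in the A results was not tested. For B, over all arrays and for the difference between experiments, counts and medians of the list are also given without the arrays against their label, while single genes in B are given with all 8 arrays unless stated.

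**Figure D1:**
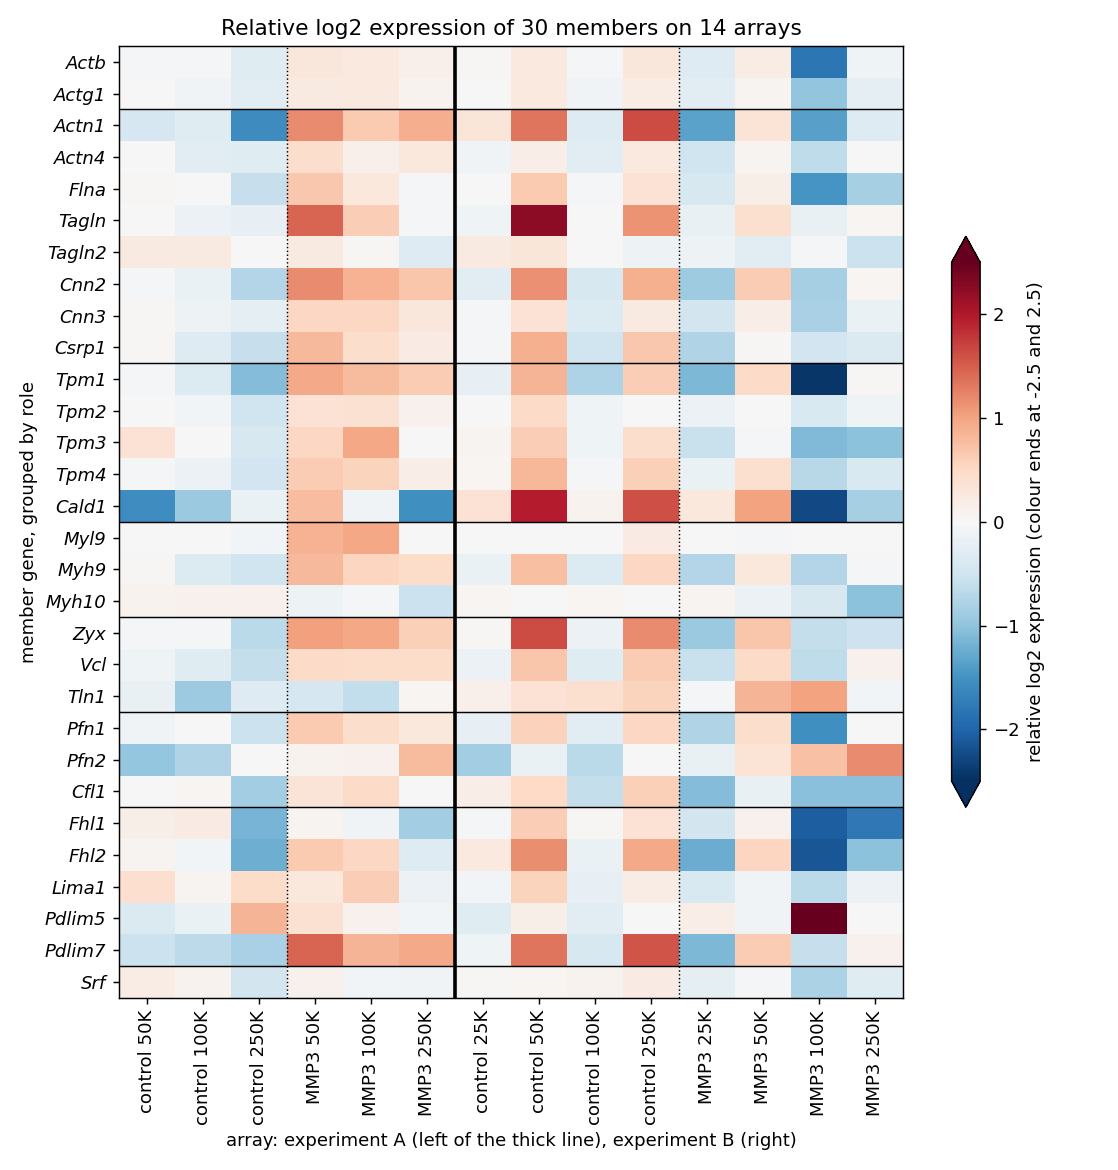
Heat map of relative log2 expression (colour) for the 30 tested genes (rows, grouped by role) on the 14 arrays (columns, experiment A left of the thick line and B right of it; dotted lines part control from MMP3). In A the MMP3 columns are mostly red and the control columns pale or blue, with Pdlim7 at 1.45 in MMP3 50K, while in B the columns control 50K and control 250K are the reddest.

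In experiment A, 17 of the 30 genes rose with MMP-3 and 0 fell. The background was 14.5% of all genes tested rising and 10.5% falling, 25.1% in all (2960 of 11812 genes). The effect was positive for 26 of the 30 genes, with a median of 0.58 on the log2 scale, against a median of -0.02 over all genes. The 18S and Gapdh controls (above) separated the same groups. All 3 dishes with MMP-3 read above all 3 controls for 16 of the 30 genes, against 19.5% of all genes, and below them for 1, Myh10, against 23.3%. With any 1 array of A left out only 1 residual degree of freedom remained and 0 genes passed (3424 to 4516 genes and 17 to 22 of the 30 at an unadjusted p under 0.05). The 17 effects stayed positive under each of those 6 fits. Cnn2, Cnn3, Csrp1, Tpm1, Tpm4, Myh9, Vcl and Pdlim7 passed under all 9 settings tried on the 6 arrays. Of the other 9, Zyx, Pfn1 and Pfn2 passed under 8, Actn1 under 7, and Actb, Actg1, Tagln, Tpm2 and Cald1 under 6. Their highest adjusted p was 0.0559 for Actb, 0.0691 for Actg1, 0.0955 for Actn1, 0.175 for Tagln, 0.0807 for Tpm2, 0.656 for Cald1, 0.0558 for Zyx, 0.0868 for Pfn1 and 0.0818 for Pfn2.

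Both cytoplasmic actins rose a little. Actb, which encodes beta-actin, read -0.036, -0.054 and -0.30 in the A controls and 0.28, 0.24 and 0.13 in the A dishes with MMP-3. All 3 dishes with MMP-3 were above all 3 controls, and the difference was 0.35 (SE 0.06, limma adjusted p = 0.0362), a 1.27-fold rise. In B, Actb read 0.03, 0.25, -0.03 and 0.28 in the B controls and -0.32, 0.19, -1.80 and -0.10 in the B dishes with MMP-3. There the order was turned, with every dish with MMP-3 below its control and the lowest value at MMP3 100K, and the difference was -0.64 (SE 0.48), which did not pass.

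Actg1, which encodes gamma-actin and has a CArG box in its promoter (above), read -0.008, -0.094 and -0.27 in the A controls and 0.23, 0.24 and 0.095 in the A dishes with MMP-3. The groups did not overlap, and the difference was 0.31 (SE 0.05, adjusted p = 0.0376). In the other experiment Actg1 read 0.008, 0.24, -0.089 and 0.19 in the B controls and -0.27, 0.067, -0.98 and -0.23 in the B dishes with MMP-3, again with each dish with MMP-3 below its control (difference -0.44, SE 0.26, not past the threshold). Both actins thus had the same order of groups, and so had the 3′ actin control probe set, at 0.117 to 0.307 in the A dishes with MMP-3 and -0.364 to -0.058 in the A controls. Beta- and gamma-actin transcripts are alike in their coding part, and the deposited values do not show how far the probe sets tell them apart.

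Among the crosslinking and bundling proteins, 5 of 8 tested rose in A, and the median difference of the 8 was 0.66. Actn1, alpha-actinin 1, which ties filaments together in stress fibres and at adhesions, read -0.42, -0.30 and -1.57 in the A controls and 1.19, 0.66 and 0.91 in the A dishes with MMP-3. The groups lay far apart, by 1.69 (SE 0.27, adjusted p = 0.0333; 3.22-fold), and the control at 250K was the lowest A dish. In B, Actn1 read 0.30, 1.34, -0.31 and 1.63 in the B controls and -1.34, 0.35, -1.35 and -0.33 in the B dishes with MMP-3. The controls at 50K and 250K were the highest dishes of that experiment, and all 4 pairs were lower with MMP-3 (difference -1.41, SE 0.62, not past the threshold).

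Cnn2, calponin 2, an actin-binding protein of non-muscle cells with a CArG box in its promoter (above), read -0.052, -0.17 and -0.72 in the A controls and 1.19, 0.87 and 0.69 in the A dishes with MMP-3. It rose by 1.23 (SE 0.09, adjusted p = 0.0140; 2.35-fold), with no overlap. The B values of Cnn2 were -0.27, 1.15, -0.41 and 0.88 in the B controls and -0.89, 0.64, -0.83 and 0.052 in the B dishes with MMP-3. Again the highest were control 50K and control 250K, and the difference was -0.60 (SE 0.55).

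Tagln, transgelin or SM22, an actin-binding protein widely used as a readout of SRF and MRTF, read 0.003, -0.14 and -0.20 in the A controls and 1.45, 0.61 and -0.026 in the A dishes with MMP-3. It rose by 0.79 (SE 0.09, adjusted p = 0.0213), but the 3 pairs differed by 1.45, 0.74 and 0.18, so the gap shrank with density, and the dish with MMP-3 at 250K lay within the range of the controls. Its adjusted p was 0.175 when each pair of dishes was a block, which ended the call. In B, Tagln read -0.12, 2.24, -0.003 and 1.12 in the B controls and -0.20, 0.39, -0.18 and 0.05 in the B dishes with MMP-3. The control at 50K was its highest value on any array, and the difference in B was -0.79 (SE 0.60).

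Csrp1, a LIM protein that binds alpha-actinin and zyxin, read 0.038, -0.32 and -0.57 in the A controls and 0.82, 0.44 and 0.20 in the A dishes with MMP-3. Its 3 pairs differed by nearly the same amount, 0.78, 0.76 and 0.77, and the rise was 0.77 (SE 0.07, adjusted p = 0.0171). In B, Csrp1 read -0.032, 0.89, -0.50 and 0.68 in the B controls and -0.75, 0.032, -0.49 and -0.37 in the B dishes with MMP-3, with 3 of 4 pairs lower with MMP-3 and the pair at 100K even (difference -0.65, SE 0.38).

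Filamin A (Flna), which crosslinks filaments into networks, did not pass in A, with a difference of 0.49 (SE 0.11, adjusted p = 0.0549). Flna read 0.026, 0.004 and -0.58 in the A controls and 0.68, 0.27 and -0.03 in the A dishes with MMP-3. All 3 pairs were higher with MMP-3, but values at 250K were low in both groups, so the groups overlapped. In B, Flna read -0.004, 0.66, -0.025 and 0.37 in the B controls and -0.41, 0.14, -1.48 and -0.83 in the B dishes with MMP-3, lower with MMP-3 in all 4 pairs (difference -0.89, SE 0.36).

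Of the other bundling proteins, Cnn3, calponin 3, rose in A by 0.56 (SE 0.06, adjusted p = 0.0205), from between -0.24 and 0.024 in the controls to between 0.29 and 0.52. Actn4, alpha-actinin 4, differed by 0.48 (SE 0.11) with an adjusted p of 0.061. Tagln2, the transgelin of non-muscle cells, went the other way from Tagln in sign, at -0.18 (SE 0.06, adjusted p = 0.132), and did not pass. Among the calponins, the 2 non-muscle forms thus rose, and Cnn1, the smooth muscle form, read -0.02 (SE 0.01) in a fit without the filter on variation.

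Tropomyosins, which lie along the filament and set its access to myosin and cofilin, and caldesmon, which binds both, rose in 4 of 5 cases. Tpm1 read -0.037, -0.34 and -1.08 in the A controls and 0.95, 0.80 and 0.63 in the A dishes with MMP-3. The pairs widened with density, 0.99, 1.14 and 1.71, as the controls declined more steeply than the dishes with MMP-3, and the rise was 1.28 (SE 0.07, adjusted p = 0.0125; 2.43-fold). In B, Tpm1 read -0.20, 0.84, -0.76 and 0.61 in the B controls and -1.13, 0.48, -2.44 and 0.037 in the B dishes with MMP-3. The lowest dish was MMP3 100K, each pair was lower with MMP-3, and the difference was -0.89 (SE 0.79). The sign in B depended on the probe set. The other sets of Tpm1 past the filter differed by 1.17 and 0.91 in A and by -0.71 and 0.21 in B. The last of these read 0.15 in MMP3 100K of B, against -0.76 in control 100K.

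Tpm4 rose in A by 0.67 (SE 0.07, adjusted p = 0.0201) and Tpm2 by 0.46 (SE 0.08, adjusted p = 0.0371), without overlap between the groups for either. The probe set of Tpm2 is of a kind that can also bind related transcripts, per its identifier's ending. Tpm3 differed by 0.50 (SE 0.25, adjusted p = 0.241) and did not pass, and its pairs ran from 0.14 to 0.97.

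Cald1, caldesmon, passed the test but not in every pair. It read -1.54, -0.93 and -0.17 in the A controls and 0.78, -0.095 and -1.53 in the A dishes with MMP-3. The controls climbed with density while the dishes with MMP-3 declined, so the pairs differed by 2.32, 0.83 and -1.36, and the groups overlapped. The model with a slope for each agent followed these lines closely (0.60, SE 0.07, adjusted p = 0.0201), whereas the adjusted p was 0.656 with pairs as blocks, and the difference was 0.24 without control 50K and 1.05 without MMP3 250K. This pattern with density holds for the probe set used. The other 3 of Cald1 past the filter differed by 0.97, 1.13 and 1.26 in A, and one of them read 0.086, -0.15 and -0.48 in the controls and 1.41, 1.19 and 0.64 with MMP-3, with no overlap and both groups lower at higher density. In B, Cald1 read 0.37, 1.96, 0.095 and 1.60 in the B controls and 0.26, 0.999, -2.26 and -0.84 in the B dishes with MMP-3, with every pair lower with MMP-3 (difference -1.47, SE 0.77).

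Of the 3 myosin II genes, the heavy chain Myh9 rose. Myh9, non-muscle myosin IIA, read 0.037, -0.34 and -0.49 in the A controls and 0.81, 0.54 and 0.45 in the A dishes with MMP-3. The groups did not overlap, and the rise was 0.87 (SE 0.08, adjusted p = 0.0174). In B, Myh9 read -0.16, 0.74, -0.35 and 0.51 in the B controls and -0.73, 0.27, -0.74 and -0.037 in the B dishes with MMP-3, and the difference was -0.50 (SE 0.38).

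Myh10, the heavy chain of non-muscle myosin IIB, had the opposite sign from Myh9 in A, -0.34 (SE 0.10, adjusted p = 0.0988), with all 3 dishes with MMP-3 below all 3 controls. Myl9, a regulatory light chain of myosin II with a CArG box (above), differed by 0.63 (SE 0.18, adjusted p = 0.0917). It read 0.87 and 0.97 in MMP3 50K and MMP3 100K of A and stayed within -0.060 and 0.213 on the other 12 arrays. For Myl9, then, the signal stood out on 2 arrays and was nearly flat elsewhere.

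Of the 3 focal adhesion genes, Zyx and Vcl rose, and Tln1 did not pass with the probe set used. Zyx, zyxin, a LIM protein of adhesions and stress fibres, read -0.033, -0.027 and -0.68 in the A controls and 1.02, 0.97 and 0.60 in the A dishes with MMP-3. The rise was 1.11 (SE 0.12, adjusted p = 0.0203; 2.15-fold), with no overlap. In B, Zyx read 0.027, 1.62, -0.15 and 1.19 in the B controls and -0.93, 0.68, -0.60 and -0.52 in the B dishes with MMP-3. Control 50K and control 250K were again the highest B dishes, all 4 pairs were lower with MMP-3, and the difference was -1.02 (SE 0.58).

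Vcl, vinculin, which links talin to actin, read -0.099, -0.29 and -0.59 in the A controls and 0.47, 0.47 and 0.47 in the A dishes with MMP-3. The 3 dishes with MMP-3 were nearly level while the controls were lower at higher density, and the rise was 0.80 (SE 0.05, adjusted p = 0.0130). In B, Vcl read -0.14, 0.70, -0.30 and 0.63 in the B controls and -0.55, 0.47, -0.64 and 0.099 in the B dishes with MMP-3 (difference -0.38, SE 0.38). The other probe set of Vcl differed by 0.27 in A, where MMP3 100K, at -0.018, lay below every control. Tln1, talin 1, which couples integrins to vinculin, differed by 0.15 (SE 0.28) in A and by 0.07 (SE 0.31) in B, with pairs of both signs in each. Its other 2 probe sets differed by 0.43 and 0.17 in A and by -0.15 and -0.26 in B, and with the mean of its probe sets Tln1 passed in A at 0.25 (limma adjusted p = 0.0463).

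Both profilins, which load monomers onto growing filaments, rose in A, but they had opposite signs in B. Pfn1 rose by 0.66 (SE 0.11, adjusted p = 0.0342) in A and differed by -0.61 (SE 0.52) in B. Pfn2 read -0.96, -0.76 and -0.002 in the A controls and 0.096, 0.11 and 0.78 in the A dishes with MMP-3. It rose by 0.90 (SE 0.14, adjusted p = 0.0300), and both agents climbed with density. In B, Pfn2 read -0.87, -0.17, -0.67 and 0.002 in the B controls and -0.18, 0.34, 0.73 and 1.19 in the B dishes with MMP-3. Here too each dish with MMP-3 was above its control, by 0.94 (SE 0.19; unadjusted p = 0.00311, adjusted p = 0.305). Pfn2 was higher with MMP-3 in 7 of 7 pairs, and no other gene of the list was. Over all genes tested, 4.34% were.

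Cfl1, cofilin 1, which severs filaments, differed by 0.55 in A (SE 0.19, adjusted p = 0.133) with all 3 pairs higher, and by -1.01 in B (SE 0.37) with all 4 pairs lower. Neither passed.

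The LIM and PDZ-LIM adaptors, scaffolds along stress fibres, were the least uniform group, with 1 of 5 rising. Pdlim7, also called enigma, had the largest difference of the list in A with the probe set used. It read -0.54, -0.66 and -0.81 in the A controls and 1.45, 0.85 and 0.95 in the A dishes with MMP-3. The dishes with MMP-3 lay above every control, and the groups differed by 1.75 (SE 0.14, adjusted p = 0.0150; 3.37-fold). In B, Pdlim7 read -0.11, 1.34, -0.40 and 1.58 in the B controls and -1.12, 0.64, -0.57 and 0.11 in the B dishes with MMP-3. Controls at 50K and 250K were as high there as the A dish with MMP-3 at 50K, and the difference was -0.84 (SE 0.60).

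Fhl2, a LIM cofactor that is itself an SRF target and has a CArG box (above), read 0.06, -0.06 and -1.22 in the A controls and 0.65, 0.51 and -0.31 in the A dishes with MMP-3. All 3 pairs were higher with MMP-3, but both groups were lowest at 250K, and the difference of 0.69 (SE 0.19, adjusted p = 0.0865) did not pass. In B, Fhl2 read 0.25, 1.16, -0.17 and 0.95 in the B controls and -1.23, 0.53, -2.13 and -1.02 in the B dishes with MMP-3, with every pair lower with MMP-3 (difference -1.51, SE 0.66).

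Fhl1, its relative in muscle and other tissues, read 0.14, 0.21 and -1.17 in the A controls and 0.065, -0.09 and -0.86 in the A dishes with MMP-3. The difference there was -0.02 (SE 0.25, adjusted p = 0.947), and both agents were lowest at 250K. In B, Fhl1 read -0.025, 0.61, 0.025 and 0.37 in the B controls and -0.47, 0.11, -2.07 and -1.80 in the B dishes with MMP-3, where the 2 denser dishes with MMP-3 were far below the rest (difference -1.30, SE 0.41, unadjusted p = 0.0215, adjusted p = 0.355).

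Pdlim5 differed by 0.04 (SE 0.13) in A. Its difference of 1.15 (SE 1.05) in B came from MMP3 100K, which read 4.06, and was 0.14 without that array. Lima1, or EPLIN, which stabilises filaments at cell junctions, differed by -0.08 (SE 0.24) in A, and its sign depended on the probe set, since 3 of its 4 other probe sets past the filter read 0.29 to 0.43. Of the 6 other sets of Pdlim5, 3 read 0.54 to 0.61 in A and 1 was of the opposite sign, at -0.20. In B, 4 of those 6 read -0.84 to -0.46, against 1.15 for the one used. Over the list, 5 of 45 further probe sets past the filter had the opposite sign in A from the one used.

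Srf itself, the factor's own gene, did not pass in A. It read 0.18, 0.081 and -0.47 in the A controls and 0.12, -0.078 and -0.09 in the A dishes with MMP-3. The groups overlapped and the difference was 0.05 (SE 0.09, adjusted p = 0.700). In B, Srf read 0.032, 0.05, 0.09 and 0.21 in the B controls and -0.23, -0.032, -0.79 and -0.30 in the B dishes with MMP-3. All 4 dishes with MMP-3 were below all 4 controls, as for no other gene of the list and for 5.39% of all genes (no gene of the list had them all above, against 5.2%), with a difference of -0.44 (SE 0.19, adjusted p = 0.462) that did not pass.

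**Figure D2:**
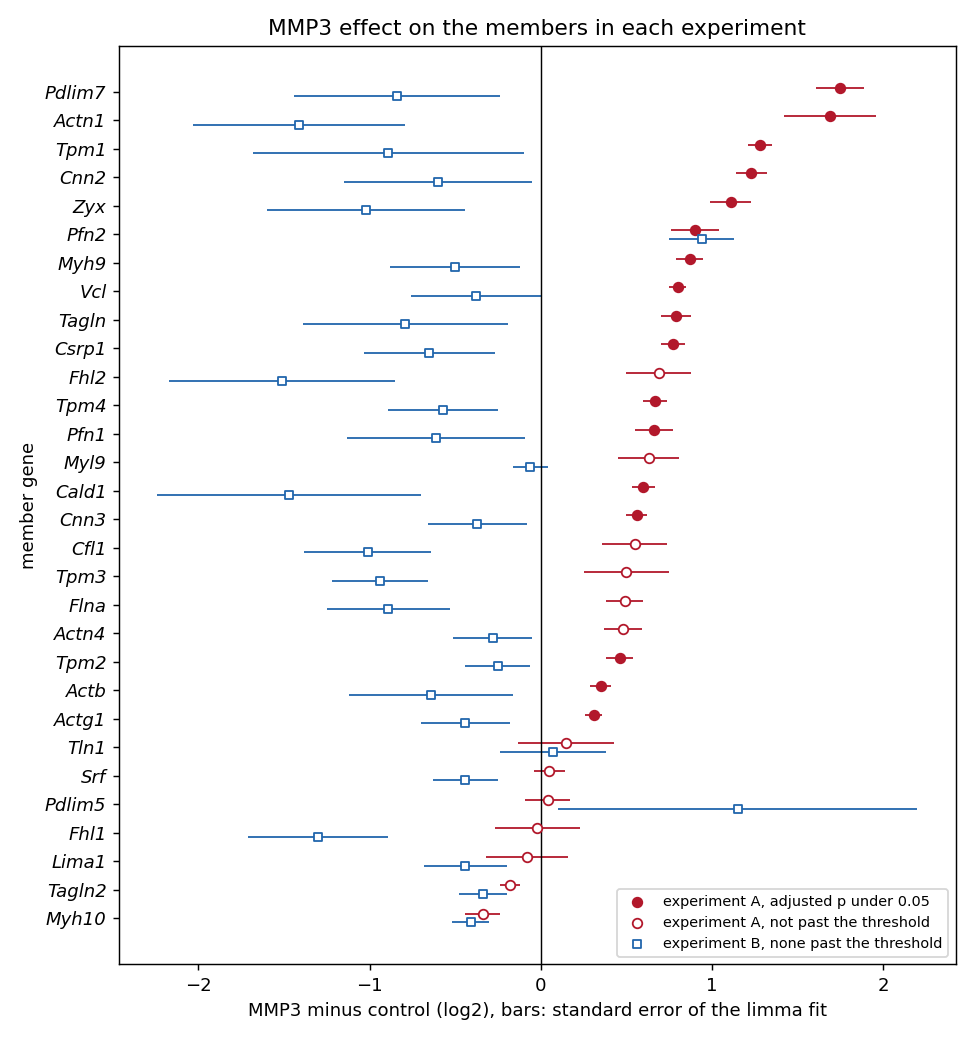
MMP-3 minus control on the log2 scale (x axis) for the 30 tested genes (y axis, in the order of the A value); circles are experiment A (filled where the adjusted p was under 0.05) and squares experiment B, and bars are standard errors of the limma fit. Circles lie right of 0 for 26 genes and squares left of 0 for 27, and Pfn2 has both at the right, at 0.90 and 0.94.

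Set against their promoters, 3 of the 8 genes with a CArG box rose in A (Actg1, Cnn2 and Vcl), while Myl9, Fhl2, Fhl1, Lima1 and Srf did not pass. Over the whole list 17 of 30 rose, and over all genes tested 14.5% did. Actb and Tagln rose as well but had no window to search. Whether the box and the rise go together was not tested. Of the 5 genes with the largest differences in A with the probe sets used, Cnn2 had a box. Pdlim7, Actn1, Tpm1 and Zyx had no exact match in the windows searched, which says only that these letters are not there.

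In experiment B the same comparison had the other sign. The difference was negative for 27 of the 30 genes, with a median of -0.58 against 0.01 over all genes, and 0 genes of the list passed. No gene at all passed (0% of 11812; 1373 genes and 5 of the list at an unadjusted p under 0.05 by limma, and 1292 and 5 with robust eBayes, also 0 adjusted). At the same unadjusted threshold there were 2440 genes and 20 of the list with each matched pair as a block, and from 465 genes and 1 of the list (without control 250K) to 2272 genes (without MMP3 250K) with 1 array left out, again 0 adjusted. The 5 genes of the list in the first count were Pfn2, higher with MMP-3, and Myh10, Tpm3, Fhl1 and Cfl1, lower. The pairs showed the shift at every density. The median pair difference of the list was 0.62 at 50K, 0.61 at 100K and 0.56 at 250K in A, and -0.41 at 25K, -0.47 at 50K, -0.46 at 100K and -0.60 at 250K in B. Of the 30 genes, 25 or 26 were higher with MMP-3 in each pair of A and 2 to 5 in each pair of B, whereas over all genes 40.7% to 57% were higher in any pair.

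Gene by gene, 22 of the 30 were higher with MMP-3 in all 3 pairs of A (28% of all genes) and 24 were lower in all 4 pairs of B (17.2%). Both held for 19 of the 30, against 7.04% of all genes. The difference between the experiments, tested on the 12 dishes at 50K to 250K, passed for 0 genes (0% of 11812; 2147 genes and 19 of the list at an unadjusted p under 0.05). Its median over the list was -1.32, with 27 of 30 negative and adjusted p from 0.239 upwards. Without the 3 of those dishes that went against their label, an alternative chosen after the data were seen, the median was -0.33 with 28 of 30 negative, and 0 genes passed (510 genes and 4 of the list unadjusted). The difference was then -1.20 for Actn1, -1.15 for Pdlim7 and -0.15 for Tpm1. This comparison uses the same arrays as the separate A and B values and is no further evidence for either.

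The median of the 30 genes on each array was -0.01, -0.11 and -0.47 in the A controls and 0.51, 0.46 and 0.10 in the A dishes with MMP-3. In B it was -0.00, 0.59, -0.16 and 0.48 in the controls and -0.44, 0.18, -0.71 and -0.16 in the dishes with MMP-3. The B controls at 50K and 250K were thus as high as the A dishes with MMP-3, and those at 25K and 100K as the A controls. Without MMP3 100K the median difference in B was -0.36, and those of Actb, Tpm1 and Pfn1 were -0.20, -0.30 and -0.23. Without the 4 arrays that went against their label it was 0.27, with 23 of 30 positive and 0 genes passing on 1 residual degree of freedom (2365 genes and 7 of the list unadjusted). That model had no product of agent and density, without which the median over all 8 arrays was still -0.58. There Pfn2 read 1.24, Tpm1 1.01, Pdlim7 0.85, Actn1 0.37 and Fhl1 -0.31. Those 4 arrays were picked by expression, of these genes among others, so the turned sign is not independent of the choice. The B arrays kept were control 25K, control 100K, MMP3 50K and MMP3 250K, so no density held both agents. The values without those 4 arrays thus compare the agents across densities and hold no matched pair.

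**Figure D3:**
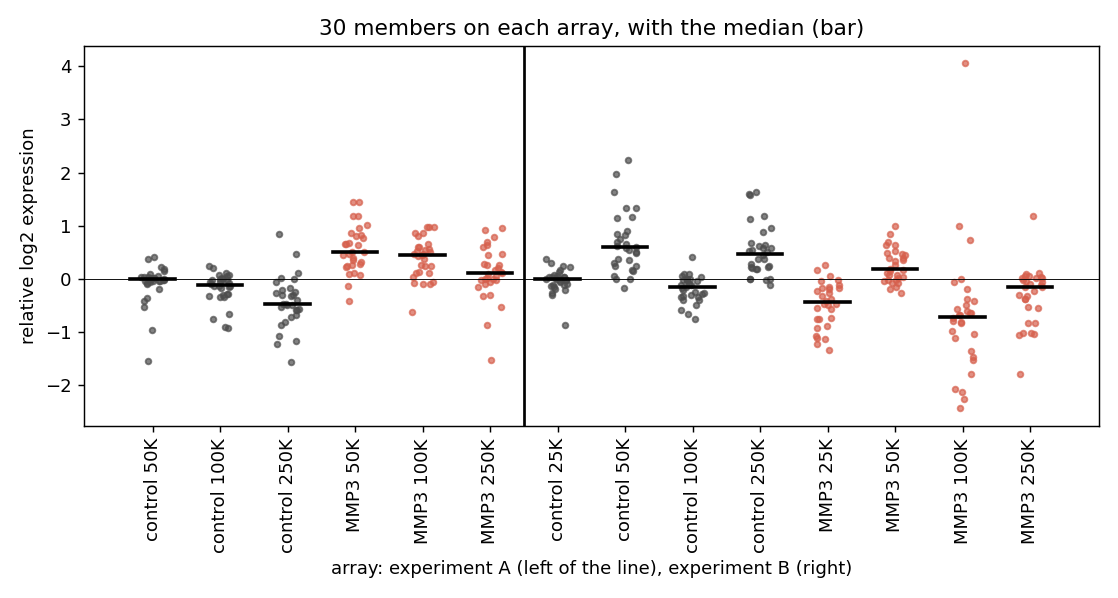
Relative log2 expression (y axis) of the 30 tested genes on each array (x axis, A left of the line and B right of it); each point is 1 gene, grey for control and red for MMP3, and the bar is the median. The bars lie at 0.51, 0.46 and 0.10 in MMP3 of A, and at 0.59 and 0.48 in control 50K and control 250K of B, above every other B array.

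In the fit to all 14 arrays, which had the experiment as a block, 2 genes of the list passed, 1 in each direction, against 1.34% of all genes rising and 1.41% falling (2.75% in all, 325 genes). Pfn2 rose by 0.93 (SE 0.12, adjusted p = 0.0286). Myh10 fell by 0.38 on the log2 scale (SE 0.08, limma adjusted p = 0.0393). Its B pairs differed by 0.01, -0.15, -0.47 and -1.02. The other probe set of Myh10 past the filter was nearly flat, at -0.03 in A and -0.05 in B. With the probe sets used, Pfn2 and Myh10 each had the same sign in the 2 experiments. Their calls were fragile: each held without control 250K or MMP3 100K of A and without control 50K or MMP3 100K of B, and was lost without any 1 of the other 10 arrays, with adjusted p up to 0.0818 for Pfn2 and 0.102 for Myh10. Their differences moved little, from 0.86 to 1.01 for Pfn2 and from -0.42 to -0.30 for Myh10. Without the experiment block both were lost, with adjusted p of 0.0636 and 0.0749, and 0 genes passed.

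The other 28 tested genes did not pass over all arrays. Actn1 came to -0.08 (SE 0.60) and Pdlim7 to 0.27 (SE 0.53). Without the 4 arrays that went against their label, 19 of the 30 passed (17 higher, 2 lower), with a median of 0.45. Over all genes 39.9% passed (4711 genes, 22.2% higher and 17.7% lower). The same reservation holds on how those arrays were picked, and no density of B then held both agents.

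Plating density had no effect that passed. The slope over all arrays, as log2 change per doubling of plated cells, had a median of -0.04 over the list and passed for 0 genes (0% of 11812; 1358 genes and 3 of the list, Pfn2, Myh10 and Tagln2, at an unadjusted p under 0.05). Pfn2 had the steepest, 0.32 (SE 0.06, adjusted p = 0.133), together with Fhl1 at -0.32 (SE 0.16, adjusted p = 0.486). Cald1 (-0.19, SE 0.26), Fhl2 (-0.18, SE 0.23) and Flna (-0.16, SE 0.14) followed, none past the threshold.

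Within A the slopes were mostly downward, 27 of 30 negative with a median of -0.19, though again 0 genes passed (0%; 3506 genes and 19 of the list at an unadjusted p under 0.05). The slope was -0.50 per doubling for both Fhl1 and Fhl2 (SE 0.13 and 0.10), -0.36 for Tagln (SE 0.05) and -0.30 for Tpm1 (SE 0.04), with adjusted p of 0.131, 0.111, 0.105 and 0.105. Pfn2 had a slope of 0.36 (SE 0.07, adjusted p = 0.109). Without control 250K the unadjusted count was 838 genes and 4 of the list, with a median of -0.15 and Fhl1 at -0.17, and without MMP3 250K it was 1208 genes and 4 of the list, with a median of -0.14. In B the median slope was 0.02 and 0 genes passed (0%; 470 genes and 2 of the list unadjusted). The B controls read high at 50K and 250K and low at 25K and 100K. Without the 4 arrays that went against their label, 17 of the list passed over the remaining 10 arrays, 16 of them downward and Pfn2 upward at 0.33, against 24.8% of all genes (13.1% upward, 11.7% downward). Within B, without those arrays and the product, the median slope was -0.16 and 0 genes passed (1369 genes and 6 of the list unadjusted). The reservation on how the arrays were picked holds for both, and in both no density of B held both agents. The limma test of whether the slope differed between agents, over the 14 arrays, passed for 0 genes (0%; 228 genes and 1 of the list unadjusted). That gene was Myh10, at -0.26 per doubling (limma, unadjusted p = 0.00346).

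**Figure D4:**
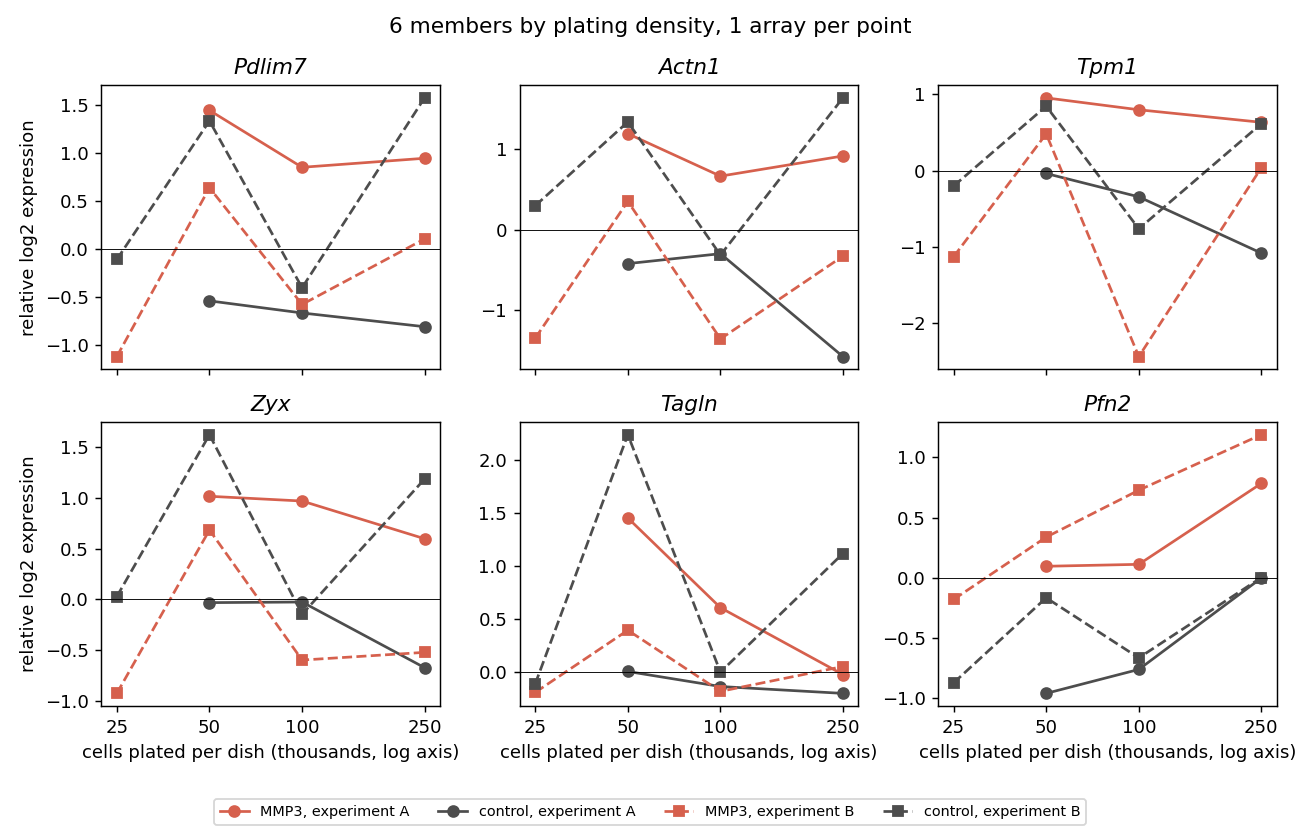
Relative log2 expression (y axis) against plated cells in units of K (x axis, log scale) for 6 genes, with 1 array per point; red is MMP3 and grey control, circles with solid lines experiment A and squares with dashed lines experiment B. For Pdlim7, Actn1, Tpm1 and Zyx the A lines of the agents stay apart while the B lines zigzag with control above MMP3, and for Pfn2 MMP3 lies above control in both experiments.

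Most of the 30 genes varied together from array to array, though not all. Pearson's r of a gene with the mean of the other 29 over the 14 arrays had a median of 0.87, and 25 of 30 were above 0.5. Among the 11782 other genes tested, the correlation with the list's mean had a median of -0.04 and 26.1% were above 0.5. Tpm4 (r = 0.98, Spearman's 0.97) and Zyx (r = 0.97, Spearman's 0.98) were closest to the rest. Tagln2 (r = 0.25, Spearman's 0.37), Myh10 (r = 0.15, Spearman's -0.22), Tln1 (r = -0.09, Spearman's -0.04), Pfn2 (r = -0.12, Spearman's 0.03) and Pdlim5 (r = -0.52, Spearman's -0.16) did not follow. Srf (r = 0.69, Spearman's 0.62) lay between. Without MMP3 100K of B the median was 0.88, and Pdlim5 came to -0.04. These are descriptions over arrays that share experiments and processing.

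Related genes had the same sign in A in most families. Actb and Actg1 rose by 0.35 and 0.31, Cnn2 and Cnn3 by 1.23 and 0.56, Pfn1 and Pfn2 by 0.66 and 0.90, and Tpm1, Tpm2 and Tpm4 by 1.28, 0.46 and 0.67, and Actn1 and Actn4 read 1.69 and 0.48. Signs differed in other families. Tagln rose in A by 0.79 while Tagln2 read -0.18, and Myh9 rose by 0.87 while Myh10 read -0.34. Fhl2 read 0.69, while Fhl1, at -0.02 (SE 0.25), had no clear sign. These differences between relatives were not tested.

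Around the list, 21 targets of MRTF and SRF that are not among the 31 genes were tested. In A, 9 of them rose and 0 fell, against 14.5% and 10.5% of all genes, with a median of 0.51. Ccn2 (connective tissue growth factor) rose by 4.09 (SE 0.23, adjusted p = 0.0125) and Ccn1 by 3.89 (SE 0.19, adjusted p = 0.0123). Both encode secreted matrix proteins and are also targets of YAP and TEAD. Ankrd1 rose by 2.01 (SE 0.16) and the adhesion gene Parva by 1.47 (SE 0.14). In B the same genes read -3.40 (SE 2.20), -3.18 (SE 1.96), -1.28 (SE 1.06) and -0.39 (SE 0.58), none past the threshold.

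The immediate early genes, which SRF controls with ternary complex factors in place of MRTF, had 11 members tested. In A, 1 rose and 2 fell, against 14.5% and 10.5% of all genes, with a median of -0.16. Egr3 fell by 2.64 on the log2 scale (SE 0.48, adjusted p = 0.0405) and Egr2 fell by 1.65 (SE 0.17, adjusted p = 0.0186), and Ier3 rose by 1.15 (SE 0.20, adjusted p = 0.0374). In B the median was -0.10 and none passed. The difference between the 2 kinds of SRF target was not tested.

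Among 20 tested genes of actin nucleation, capping and severing, 11 rose and 0 fell in A, with a median of 0.39. Over all genes tested, 14.5% rose and 10.5% fell. Cttn, cortactin, which supports branched actin, rose by 1.05 (SE 0.07). The cyclase-associated protein gene Cap1 and the severing protein gene Gsn each rose by 0.78 (SE 0.10 and 0.13), and the monomer-binding Tmsb10 by 0.77 (SE 0.08). Of 11 tested genes of microtubules and intermediate filaments, 4 rose and 2 fell, against the same shares of all genes, with a median of 0.21. Vim, vimentin, rose by 1.14 (SE 0.21), Tubb2b by 1.02 (SE 0.10) and Tuba1a by 0.68 (SE 0.08), and Stmn1, which takes microtubules apart, fell by 0.81 on the log2 scale (SE 0.09). The medians in B were -0.14 and -0.69, with none passing.

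Markers of cell types were read beside these genes, since actin and SRF targets are also high in myoepithelial cells and fibroblasts. The background in A was 14.5% of all genes tested rising and 10.5% falling, and these marker lists are small. Of 9 listed myoepithelial and smooth muscle markers 6 were tested, and in A 0 rose and 2 fell, with a median of -0.49. Trp63 fell by 1.44 on the log2 scale (SE 0.18) and Krt5 fell by 1.03 (SE 0.05). Oxtr and Krt14 read -0.59 and -0.38. Of the opposite sign were Smtn at 0.53 (limma adjusted p = 0.0881) and the smooth muscle actin gene Acta2 at 0.24 (limma adjusted p = 0.0661). Smtn and Acta2 are also in the list of other MRTF and SRF targets above. Of 9 listed epithelial markers only 4 varied enough to be tested, and 3 of these rose. They were Epcam (1.18, SE 0.05), the E-cadherin gene Cdh1 (0.89, SE 0.06) and Gata3 (0.72, SE 0.12). Of 8 fibroblast markers 2 were tested, none passing (median -0.46). Of 6 macrophage and leukocyte markers 3 were tested, none passing (median -0.14). None of the 5 endothelial markers varied enough to be tested. In B the medians were -0.37 for the myoepithelial, -0.00 for the epithelial, 0.89 for the fibroblast and 0.08 for the leukocyte markers, with none passing. Centred values cannot show whether a marker is present in SCp2 cells, so the label of the line could not be checked by level, and the part of other cell types in the results was not tested.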

How the data were processed

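RNA from 14 dishes of SCp2 cells was measured on Affymetrix mouse arrays, from 200 ng of total RNA each, per the labels' protocols. The authors deposited log2 expression values made with RMA, per the submitters' processing notes (no version is named). Every one of the 45101 probe sets has a median of 0 over the 14 arrays (within 1e-06), a centring seen in the values and stated nowhere in the sources used here, and the log base is likewise unstated and taken as RMA's. Arrays have no read depth, so their number limits the precision, and without scanner files the signal over background is unknown.

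Of 45037 probe sets that are not controls, 34945 carried 1 gene symbol, 932 several and 9160 none in the platform annotation. The first kind covered 18193 genes. For a gene with several, the most variable was taken, and a gene entered the tests if its SD reached the 40th percentile (0.049), as 11812 genes did. The 31 genes had 82 probe sets, 75 of them past the filter, and 21 genes had more than 1.

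Linear models were fitted with limma 3.58.1 under R 4.3.3, moderated by eBayes, with Benjamini-Hochberg adjusted p-values and a threshold of 0.05; the script was first checked on simulated data. The model held agent, centred log2 density and their product, with experiment as a block over all arrays. Residual degrees of freedom were 9 over all arrays, 2 in A and 4 in B. The difference between experiments was fitted with density as a factor. Dishes are the replicates, and nothing says that they came from separate cultures, so p-values reflect only how these dishes vary, which may be technical. A and B are separate experiments per the labels, which is why the model blocks on them. Arrays of the same experiment deviated from their group means with a correlation of 0.06 on average (-0.67 to 0.65 over 15 pairs).

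Alternatives changed the probe set rule, the filter, the scaling, the variance prior, the product term, the block and the arrays used. The members and all lists were chosen with earlier results of these data known. All 31 genes are named. Values on every array are given for the 10 with the largest difference in A among those past the threshold, the 4 further genes with the largest slope over all arrays, and Actb, Actg1, Srf and Tagln. From each other list, counts and up to 4 passing genes with the largest difference in A are given. Acta2, Smtn, Oxtr and Krt14 were added after their values were seen. The list of genes upstream of SRF is not reported here. Promoter sequences are RefSeq's (GRCm38.p6).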

Additional observations from a re-analysis of the deposited data

Results flagged for a closer look

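For 19 genes of the list the MMP-3 difference had one sign in every pair of A and the opposite sign in every pair of B. This was with the probe sets used, and the sign of Tpm1 in B depended on that choice (above). These 19 genes were higher with MMP-3 in 3 of 3 pairs of A and lower in 4 of 4 pairs of B. The difference itself (B minus A, log2, on the 12 dishes at 50K to 250K) was tested with limma and passed for none of them, with adjusted p between 0.239 and 0.327. It was largest in size for Actn1 (-3.01), Pdlim7 (-2.53), Fhl2 (-2.21), Tpm1 (-2.15) and Zyx (-2.14). The filament-binding genes Tagln and Cnn2 were both at -1.82, Flna at -1.54, Cnn3 at -0.90 and Actn4 at -0.71. Among the tropomyosins Tpm3 was at -1.53, Tpm4 at -1.35 and Tpm2 at -0.75. Myh9 was at -1.34 and Vcl at -1.16. Of the genes of filament turnover, Cfl1 was at -1.47 and Pfn1 at -1.29. The actins were at -1.08 for Actb and -0.81 for Actg1. On the same arrays, 4 of B went against their label over all genes (control 50K, control 250K, MMP3 25K and MMP3 100K). Without the 3 of them at 50K to 250K, B held no matched pair. The difference was then -1.20 for Actn1, -1.15 for Pdlim7, -0.63 for Zyx, -0.33 for Fhl2 and -0.15 for Tpm1.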

How the results depend on the processing

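In the main fit of A, 2960 genes (25.1% of 11812) and 17 of the list passed. Without the filter on variation, 1271 genes (6.99% of 18193) and 10 of the list passed. With each matched pair as a block, 1908 genes (16.2%) and 15 of the list passed. The setting without the filter tests more genes, and the cause of the change with pairs as blocks was not tested. With any 1 array left out, 0 genes and 0 of the list passed in A, on 1 residual degree of freedom. With density centred over all 14 arrays, a setting chosen after the data were seen, 2425 genes (20.5%) and 16 of the list passed.

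Over all arrays (325 genes, 2 of the list), 206 genes passed without the filter, 2 genes and 0 of the list with a stricter one (the 60th percentile of SD), 576 genes after quantile normalization, 1 of the list without the product term, and 2 genes and 0 of the list with pairs as blocks. The cause was not tested. With no replicate block for experiment, 0 genes and 0 of the list passed, and it changed no other call on the list. Leaving out 1 array gave 0 to 1269 genes, the most without MMP3 100K of B, and 0 to 3 of the list.

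Without the 4 arrays that went against their label, 4711 genes and 19 of the list passed over all arrays, and these differences turned positive: Actb 0.27, Actg1 0.22, Actn1 1.20, Tagln 0.70, Csrp1 0.62, Tpm4 0.51, Zyx 0.87 and Pfn1 0.66. For the density slope 2928 genes and 17 of the list passed, and Cnn2 (-0.24), Myh9 (-0.17), Vcl (-0.13) and Pfn1 (-0.16) changed sign. These arrays were picked by expression, and without them no density of B held both agents.

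The density slope in A passed for 123 genes under the stricter filter, none of the list. The difference between experiments passed for 0 to 75 genes and 0 to 2 of the list with 1 array left out, the most without control 100K of B (Csrp1 and Pdlim7).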
